A study of Homo sapiens with 36 samples.

Results

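The ubiquitin-conjugating (E2) enzymes are described here through 33 genes of the 21599 in the deposited table. They are the protein-coding genes whose current symbol is UBE2 followed by a letter code, such as UBE2A, UBE2D1 or UBE2QL1. The 5 pseudogene rows whose symbols fit the same pattern, UBE2NL among them, were left out. UBE2L5 and UBE2U fit the rule and are not analysed here. All 33 genes passed the filter on low values (at or above 3.32, the log2 of 10, in at least 3 libraries), which kept 21232 genes. UBE2QL1 passed it only through its stimulated libraries.

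E2 enzymes stand in the middle of a relay. An E1 enzyme activates ubiquitin or a ubiquitin-like protein, the E2 carries it as a thioester, and an E3 ligase directs the transfer to a substrate. The E2 often sets which lysine of ubiquitin is used for the next link, and so the kind of chain built. A few E2s carry other modifiers instead of ubiquitin: UBE2L6 carries ISG15, and UBE2M and UBE2F carry NEDD8. In macrophages, chains linked through lysine 63 or the N-terminus pass on signals from Toll-like receptors, and ISG15 is attached to proteins after interferon exposure.

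The measurements were RNA-seq values of THP-1 cells, an established human monocytic leukaemia line, made macrophage-like with 100 nM phorbol ester (PMA) for 72 h in every group. The cells were wild type (WT) or IRG1 knockout (KO). ACOD1, formerly named IRG1, encodes the enzyme that makes itaconate. Each genotype was given vehicle or stimulated with 200 ng/mL LPS together with 200 ng/mL interferon-gamma (IFN-γ) for 6, 12 or 24 h, which gives 12 groups of 3 libraries. How the knockout was made and whether it is 1 clone are not given in the sources used here, and nothing says that replicates came from separate cultures. The p-values therefore reflect only the spread between these libraries. The title of the series ties itaconate made by the cells to ubiquitination, and the comparisons below ask how transcripts of the E2 enzymes differed with stimulation and genotype. Transcripts say nothing on their own about enzyme activity or protein level.

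Values are the authors' log2 expression values. No read counts come with them, so the depth is unknown and no limit from counting can be given. Less RNA per cell and fewer cells of a kind cannot be told apart in such bulk samples. The values are not per length, and levels are therefore compared between libraries and not between genes. A log2 change is followed by its standard error (±), an adjusted p comes from limma over all 21232 genes, and a gene is called at an adjusted p below 0.05. Numbers in brackets after a left-out library are the log2 change without it. Sets of 3 changes run in the order 6, 12 and 24 h.

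ACOD1 was between 0.00 and 0.86 in all vehicle libraries, between 9.20 and 12.76 in stimulated WT libraries and between 7.98 and 10.22 in stimulated KO libraries, so its transcript was present in stimulated KO cells, lower than in WT cells by a called difference at 6 and 12 h (-3.31 and -2.69) and not at 24 h (-1.48, adjusted p = 0.0597 by limma). All 12 macrophage markers had rows, with CD68 at 10.45 to 13.53 and SPI1 at 9.37 to 11.84, while MRC1 stayed at 0.18 to 5.58. Of 15 markers of other cell types, 14 had a median of at most 4.18 (COL1A1), and CD2 was listed at 0 in 12 libraries. PECAM1, which monocytes also express, had a median of 7.70. KO stimulated 6 h replicate 2 and WT stimulated 24 h replicate 3 stood apart, with a mean correlation to their own group of 0.839 and 0.870 against 0.890 to 0.964 for the other 34. Values without them are given where they change a call.

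The stretches below lie before the start sites of 5 E2 genes that the results turn on: UBE2D1, which was lower in KO cells in both treatments, the UBE2E genes, whose members moved in opposite directions, and UBE2T, which fell the most among genes called at all times. They are RefSeq sequences of the build GRCh38.p14, a later build than the one named for the deposited values, and bases that GENCODE 29 places in an exon were left out. UBE2D1 is shown at chr10:58334756-58334974 (plus strand), UBE2E1 at chr3:23805705-23805902 (plus), UBE2E2 at chr3:23202848-23203019 (plus), UBE2E3 at chr2:180980110-180980359 (plus) and UBE2T at chr1:202341981-202342186 (minus). Capitals mark letters of a motif: an interferon-gamma activated site (GAS) in UBE2D1, overlapping NF-κB motifs in UBE2E3 and a cell cycle homology region (CHR) in UBE2T.
UBE2D1: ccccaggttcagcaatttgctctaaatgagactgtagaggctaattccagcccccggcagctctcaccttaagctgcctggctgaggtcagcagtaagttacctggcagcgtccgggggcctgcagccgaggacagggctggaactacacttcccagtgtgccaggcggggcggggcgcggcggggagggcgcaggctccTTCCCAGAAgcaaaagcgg
UBE2E1: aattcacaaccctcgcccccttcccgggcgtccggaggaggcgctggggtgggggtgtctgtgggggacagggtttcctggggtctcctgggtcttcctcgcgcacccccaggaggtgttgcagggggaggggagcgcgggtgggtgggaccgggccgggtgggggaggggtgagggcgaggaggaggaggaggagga
UBE2E2: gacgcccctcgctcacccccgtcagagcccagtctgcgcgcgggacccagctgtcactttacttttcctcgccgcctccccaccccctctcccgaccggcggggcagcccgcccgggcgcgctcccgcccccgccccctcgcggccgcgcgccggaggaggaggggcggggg
UBE2E3: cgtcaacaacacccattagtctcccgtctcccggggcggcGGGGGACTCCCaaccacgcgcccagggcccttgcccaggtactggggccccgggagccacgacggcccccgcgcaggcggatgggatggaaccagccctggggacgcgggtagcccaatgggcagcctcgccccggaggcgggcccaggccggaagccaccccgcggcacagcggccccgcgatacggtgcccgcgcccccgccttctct
UBE2T: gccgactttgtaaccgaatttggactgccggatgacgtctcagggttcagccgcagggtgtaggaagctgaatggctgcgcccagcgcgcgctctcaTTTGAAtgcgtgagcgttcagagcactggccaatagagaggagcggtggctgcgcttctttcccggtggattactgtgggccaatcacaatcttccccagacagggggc

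Of the 33 genes, 26 had an entry in the RefSeq promoter table, and the 250 bases before each start were searched on both strands. The letters of the interferon-stimulated response element (ISRE, GAAANNGAAA) were in 1 of the 26, UBE2D3, against 3.7% of the 27305 genes in the table. GAS letters (TTCNNNGAA) were in UBE2D1 and UBE2D3, against 8.1% of genes, and the NF-κB motif was in UBE2D3, UBE2E3, UBE2M and UBE2QL1, against 11.8%. CHR letters (TTTGAA) were in UBE2F and UBE2T, against 16.1%. None of the 26 held the E2F letters TTTGGCGC, found in 0.7% of genes. The letters of an antioxidant response element (ARE, TGACNNNGC) were in UBE2D2, UBE2J1, UBE2K and UBE2Q2, against 13.2% of genes. GAS letters are their own reverse complement, and the matches of the NF-κB motif in UBE2E3 overlap one another. The windows of UBE2L6, UBE2E1 and UBE2E2, all genes that rose, held no ISRE, GAS or NF-κB letters in these bases. A match or its absence is a description of these letters only.

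With stimulation, members of the family moved in both directions. In WT cells 10 members rose and 5 fell at 6 h, 12 rose and 6 fell at 12 h, and 14 rose and 8 fell at 24 h. Across all tested genes, 15.1% rose and 20.9% fell at 6 h, 16.8% and 21.7% at 12 h and, after 24 h, 20.2% and 26.1%. Among protein-coding genes alone, 15.1%, 16.5% and 19.3% rose and 24.1%, 24.4% and 28.9% fell. The share of E2 genes called higher (30.3%, 36.4% and 42.4%) thus lay above both. The share of E2 genes called lower (15.2%, 18.2% and 24.2%) lay near or below that of all genes, and below that of protein-coding genes. UBE2QL1, which passed the filter only through its stimulated libraries, is among those called higher at 12 and 24 h. The median of the mean values was 7.36 for the members, 5.45 for all genes kept and 5.87 for protein-coding genes kept. These values are not per length, and their bearing on the shares called was not tested. The median change of the members was -0.02, 0.08 and 0.06, against -0.17, -0.18 and -0.11 over all genes.

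In KO cells 12 members rose and 6 fell at 6 h, 9 and 6 at 12 h and, after 24 h, 12 and 6. Among all genes, 16.2% rose and 22.5% fell at 6 h, 15.5% and 19.5% at 12 h and, after 24 h, 17.3% and 21.6%. The members called higher in KO cells include UBE2QL1 at each time, which passed the filter only through its stimulated libraries. Fitted on only the 6 libraries compared, the KO count at 6 h dropped from 18 to 11, without UBE2B, UBE2E3, UBE2F, UBE2G1, UBE2L3, UBE2M and UBE2Z (adjusted p = 0.0560 to 0.231). The same smaller fits lost UBE2L3 in WT cells at 6 and 24 h, UBE2S and UBE2V2 at 12 h and UBE2C, UBE2M and UBE2N at 24 h (adjusted p = 0.0633 to 0.117), and UBE2D2 in KO cells at 24 h (adjusted p = 0.0503). They gained UBE2B, UBE2C, UBE2G2 and UBE2L3 in KO cells at 12 h (adjusted p = 0.0210, 0.0472, 0.0318 and 0.0480) and UBE2M at 24 h (adjusted p = 0.0476). Over both genotypes and the 3 times, 8 genes rose in all 6 comparisons (UBE2A, UBE2D1, UBE2D3, UBE2E1, UBE2E2, UBE2F, UBE2L6 and UBE2Z) and 3 fell in all 6 (UBE2E3, UBE2G1 and UBE2T). Another 13 were called in 1 to 5 comparisons, none in opposite directions, and 9 in none. How many of all tested genes show these patterns was not counted, so these numbers describe the members only. Of the 106 member calls in these comparisons, 82 held without each of their libraries in turn.

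**Figure D1:**
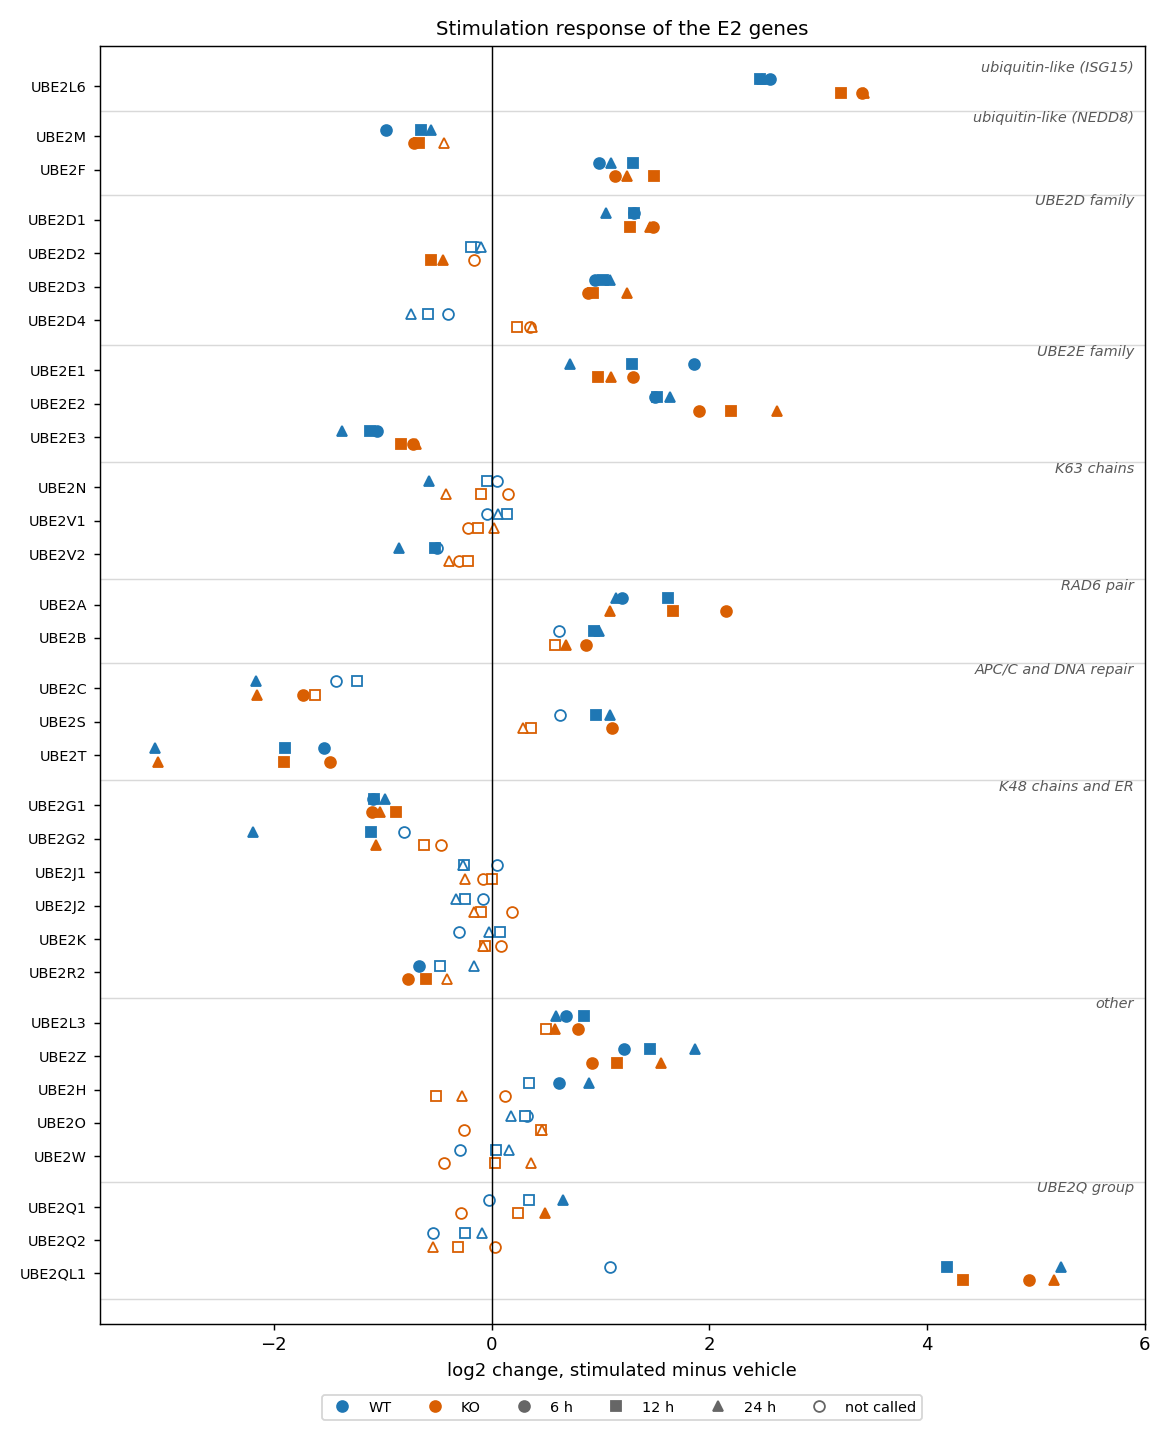
Log2 change with stimulation (horizontal axis, stimulated minus vehicle) of the E2 genes described here, grouped by role, in WT (blue) and KO cells (orange) at 6 h (circles), 12 h (squares) and 24 h (triangles). Filled symbols are called. UBE2L6 in KO cells and, but for WT at 6 h, UBE2QL1 lie farthest to the right, while UBE2T at 24 h lies farthest to the left.

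UBE2L6, the E2 of ISG15, was among the strongest responders. In WT vehicle libraries it read 7.73, 8.61 and 8.74 (6 h), 7.95, 9.30 and 8.81 (12 h) and 8.05, 8.80 and 8.40 (24 h). In stimulated WT libraries it read 10.81, 11.09 and 10.86, then 10.97, 11.22 and 11.27, then 10.94, 11.20 and 10.54. No stimulated WT library overlapped a vehicle library.

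KO vehicle libraries gave UBE2L6 values of 7.84, 8.43 and 7.57 (6 h), 8.21, 8.47 and 8.05 (12 h) and 7.75, 8.18 and 7.93 (24 h). After stimulation they were 11.27, 11.26 and 11.50, then 11.44, 11.32 and 11.59, then 11.35, 11.28 and 11.49. The stimulated KO libraries were thus close together, and all stood above every stimulated WT library of their time. UBE2L6 rose 5.90-fold, 5.54-fold and 5.57-fold in WT cells (2.56 ± 0.27, 2.47 ± 0.27 and 2.48 ± 0.27, adjusted p = 1.95e-08, 4.12e-08 and 3.08e-08). In KO cells it rose 10.52-fold, 9.24-fold and 10.72-fold (3.40 ± 0.27, 3.21 ± 0.27 and 3.42 ± 0.27, adjusted p = 6.62e-11, 2.27e-10 and 5.58e-11). KO against WT it read -0.41, -0.44 and -0.46 in vehicle libraries and 0.42, 0.30 and 0.48 after stimulation, and none of these 6 differences was called.

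Most other genes of the ISG15 system were called higher as well. Of its 7 genes other than UBE2L6, 6, 6 and 7 rose in WT cells at 6, 12 and 24 h and 5 at each time in KO cells, with none lower. Over all tested genes 15.1% to 20.2% rose in these comparisons. The list's median change at 24 h was 3.41 in WT against 4.25 in KO cells, where all tested genes had medians of -0.11 and -0.08. ISG15 itself changed by 4.53, 4.20 and 4.53 in WT against 6.56, 5.70 and 5.82 in KO cells, HERC5, a main ISG15 ligase, by 4.66, 3.56 and 3.71 against 5.65, 4.97 and 4.88, and USP18, which removes ISG15, by 4.70, 4.38 and 4.52 against 4.13, 3.99 and 4.25. UBA7, the E1 that hands ISG15 to UBE2L6, rose in WT cells (0.91, 1.12 and 0.92) and was not called in KO cells (-0.01, 0.49 and 0.06). On the mean of the 3 times its response was lower in KO than in WT cells by a called interaction of -0.81, while that of HERC5 was higher (1.19). UBA7 read 7.80 to 8.76 in WT and 8.57 to 9.22 in KO vehicle libraries, and 8.68 to 9.67 and 8.47 to 9.82 after stimulation. HERC5 read 4.89 to 6.55 in WT and 3.23 to 4.72 in KO vehicle libraries, and 8.72 to 10.48 and 8.07 to 9.63 after stimulation. For both genes the stimulated values of the genotypes thus overlapped. No other gene of this list, ISG15 included, had a called interaction on the mean, and none had one at a single time. Vehicle values of ISG15 varied widely, from 9.24 to 12.03 in WT and from 7.75 to 10.57 in KO libraries.

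UBE2L3, the paralog of UBE2L6 that carries ubiquitin for RING-between-RING ligases such as the linear-chain complex, rose less. Its change was 0.68 ± 0.22, 0.85 ± 0.22 and 0.59 ± 0.22 in WT cells (adjusted p = 0.0166, 0.00329 and 0.0293) and 0.79 ± 0.22, 0.50 ± 0.22 and 0.58 ± 0.22 in KO cells (adjusted p = 0.00556, 0.0827 and 0.0384). Several of these calls of UBE2L3 rested on single libraries. They were lost in WT cells at 6 h without vehicle replicate 1 (0.56) or stimulated replicate 3 (0.43), at 24 h without vehicle replicate 1 or 2 (0.51, 0.59) or stimulated replicate 1 or 3 (0.60, 0.47), and in KO cells at 6 h without vehicle replicate 3 (0.62). In KO cells at 24 h any of 5 libraries ended it (0.47 to 0.64), all but stimulated replicate 2. Of the UBE2L3 transcript sequence, 7.3% of 50-base words also occur in other genes, among them UBE2L5, and how such reads were assigned is not given.

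The UBE2D enzymes, general-purpose ubiquitin carriers used by many RING ligases, did not move as a block. UBE2D1 rose in every comparison and UBE2D3 did too, whereas UBE2D2 fell slightly in KO cells alone among the calls and UBE2D4 was not called. UBE2D3 went from 6.67 to 7.29 in WT vehicle libraries to 7.76 to 8.02 in stimulated ones, and from 6.59 to 6.89 to 7.48 to 8.01 in KO cells, without overlap. Its change was 0.95 ± 0.15, 1.02 ± 0.15 and 1.09 ± 0.15 in WT against 0.89 ± 0.15, 0.93 ± 0.15 and 1.24 ± 0.15 in KO cells, with adjusted p between 1.68e-07 and 3.01e-05.

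UBE2D2 changed by -0.13, -0.19 and -0.10 in WT cells against -0.16, -0.56 ± 0.18 (adjusted p = 0.0164) and -0.45 ± 0.18 (adjusted p = 0.0485) in KO cells. The call of UBE2D2 at 12 h was lost without KO vehicle replicate 3 (-0.54) or stimulated replicate 2 (-0.46), and that at 24 h without any of its 6 libraries (-0.40 to -0.52). It was also lost with 5 added before the logarithm (-0.44) or with no mean-variance trend. UBE2D4 changed by -0.40, -0.58 and -0.74 in WT cells against 0.35, 0.23 and 0.37 in KO cells. With replicates as a block, the fall of UBE2D4 in WT cells at 24 h was called (adjusted p = 0.0373), as it was without stimulated replicate 2 (-0.97).

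UBE2D1 showed both a stimulation response and a genotype difference. WT vehicle libraries read 5.90, 5.80 and 6.48 (6 h), 6.15, 5.76 and 6.35 (12 h) and 6.13, 5.88 and 6.47 (24 h), and KO vehicle libraries were at 4.49, 5.02 and 4.59, then 4.87, 5.17 and 5.31, then 4.99, 4.98 and 5.09. The genotypes did not overlap at any time. After stimulation WT libraries read 7.62, 7.21 and 7.28, then 7.37, 7.37 and 7.44, then 7.36, 7.47 and 6.81, and KO libraries 6.46, 5.85 and 6.26, then 6.54, 6.36 and 6.24, then 6.43, 6.51 and 6.49. Stimulated KO libraries thus reached about the level of unstimulated WT libraries.

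The rise of UBE2D1 with stimulation was 1.31 ± 0.23, 1.31 ± 0.23 and 1.05 ± 0.23 in WT cells (adjusted p = 4.01e-05, 4.40e-05 and 0.000401) and 1.48 ± 0.23, 1.27 ± 0.23 and 1.46 ± 0.23 in KO cells (adjusted p = 6.18e-06, 6.55e-05 and 8.44e-06). In folds these are 2.48, 2.47 and 2.07 against 2.80, 2.41 and 2.74. The interaction of genotype and stimulation was 0.17, -0.04 and 0.40 at the 3 times and 0.18 ± 0.19 on their mean (adjusted p = 0.668), so a difference in response between the genotypes was not called.

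The UBE2E enzymes, a group with an extended N-terminus, split: UBE2E1 and UBE2E2 rose in all 6 comparisons and UBE2E3 fell in all 6. UBE2E1 was highest in WT cells at 6 h. WT vehicle libraries read 7.75, 8.14 and 8.17 (6 h), 8.08, 7.82 and 8.32 (12 h) and 8.01, 8.15 and 8.36 (24 h), and stimulated WT libraries 10.09, 9.92 and 9.66 (6 h), 9.42, 9.47 and 9.19 (12 h) and 9.09, 8.83 and 8.76 (24 h). Each later set of stimulated WT libraries lay below the one before it. The WT change went from 1.86 ± 0.19 over 1.29 ± 0.19 to 0.72 ± 0.19 (adjusted p = 9.52e-09, 5.10e-06 and 0.00296), and the KO change was 1.30 ± 0.19, 0.98 ± 0.19 and 1.10 ± 0.19 (adjusted p = 3.60e-06, 0.000203 and 3.98e-05).

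UBE2E2 read 6.20, 7.02 and 6.64 (6 h), 6.49, 6.69 and 6.62 (12 h) and 6.82, 6.74 and 7.21 (24 h) in WT vehicle libraries. Stimulated WT libraries were at 7.96, 8.39 and 8.00, then 7.77, 8.44 and 8.14, then 8.43, 8.96 and 8.29. KO vehicle libraries were lower, at 5.70, 6.24 and 5.86, then 5.80, 6.06 and 6.16, then 6.04, 6.01 and 6.37, and stimulated KO libraries reached 7.70, 7.72 and 8.12, then 8.25, 8.23 and 8.13, then 8.73, 8.74 and 8.81. The genotypes lay apart at 12 and 24 h in vehicle libraries and overlapped after stimulation. UBE2E2 rose 2.82-fold, 2.87-fold and 3.11-fold in WT cells (1.50 ± 0.22, 1.52 ± 0.22 and 1.64 ± 0.22) and 3.77-fold, 4.59-fold and 6.14-fold in KO cells (1.91 ± 0.22, 2.20 ± 0.22 and 2.62 ± 0.22), with adjusted p between 1.33e-10 and 3.65e-06.

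UBE2E3 fell by 1.05 ± 0.23, 1.12 ± 0.23 and 1.37 ± 0.23 on the log2 scale in WT cells (adjusted p = 0.000583, 0.000270 and 1.62e-05) and by 0.72 ± 0.23, 0.83 ± 0.23 and 0.69 ± 0.23 in KO cells (adjusted p = 0.0127, 0.00500 and 0.0162). In WT cells its values went from 6.95 to 7.53 in vehicle libraries to 5.65 to 6.42 after stimulation. The KO call was lost at 12 h without stimulated replicate 2 (-0.61), and at 24 h without vehicle replicate 3 (-0.60) or stimulated replicate 2 or 3 (-0.56, -0.62). For UBE2E3, 5.9% of 50-base words also occur in another locus.

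**Figure D2:**
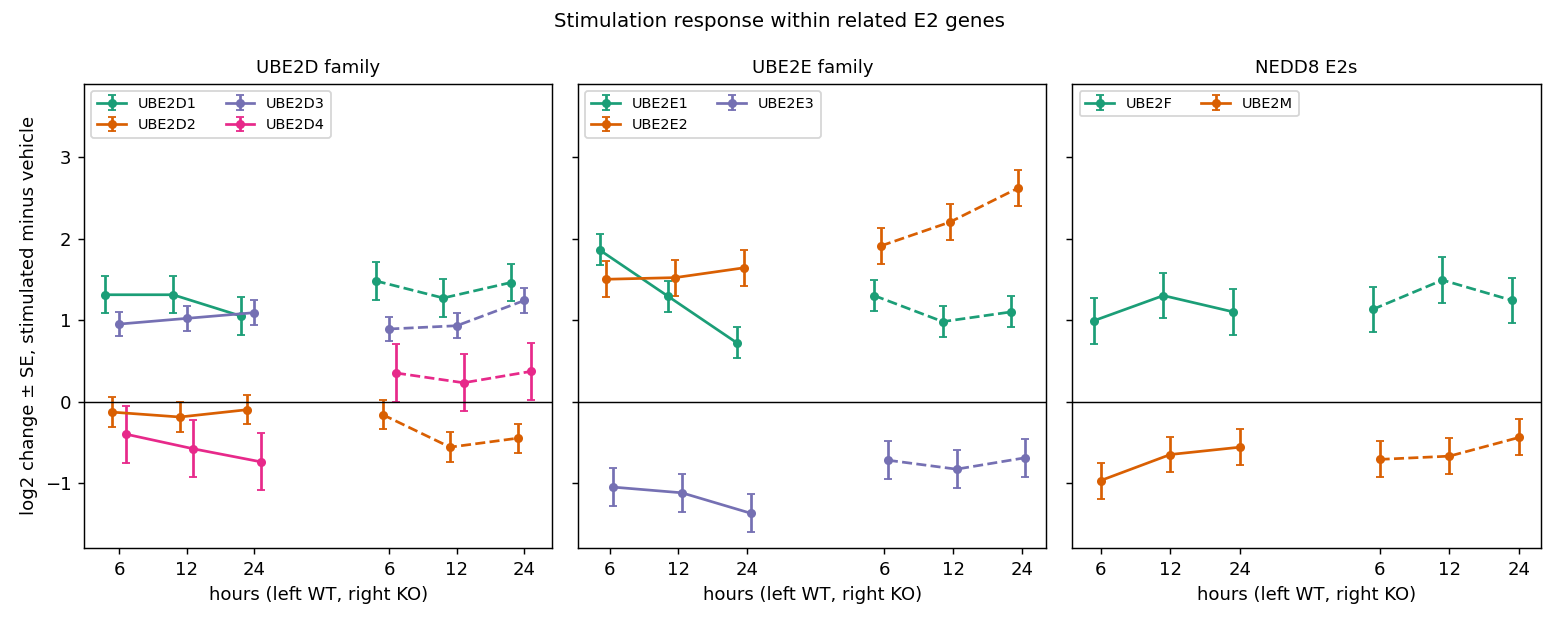
Log2 change with stimulation ± SE (vertical axis) against hours for the UBE2D genes, the UBE2E genes and the NEDD8 carriers, in WT (left, solid) and KO cells (right, dashed). UBE2E1 and UBE2E2 lie above 0 and UBE2E3 below it, UBE2F lies above 0 and UBE2M below it, and UBE2D1 and UBE2D3 lie above UBE2D2.

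The enzymes of lysine 63 chains changed little. UBE2N builds these chains, and UBE2V1 and UBE2V2 are partners that lack the catalytic cysteine. UBE2N was called once, lower in WT cells at 24 h (-0.57 ± 0.18, adjusted p = 0.0116), where vehicle libraries read 9.53, 10.21 and 9.67 and stimulated ones 9.17, 9.12 and 9.41. Without vehicle replicate 2 the change of UBE2N was -0.37 and not called, and in KO cells at 24 h (-0.42, adjusted p = 0.0735) it passed without stimulated replicate 3 (-0.58). UBE2V2 fell in WT cells at 12 h (-0.52 ± 0.21, adjusted p = 0.0480) and 24 h (-0.85 ± 0.21, adjusted p = 0.00138), and read -0.30, -0.22 and -0.39 in KO cells with no call. At 12 h the call of UBE2V2 was lost without any of its 6 libraries (-0.38 to -0.60) and with no mean-variance trend, and with replicates as a block its fall at 6 h (-0.50) was called as well (adjusted p = 0.0352). UBE2V1 was never called, and 59.4% of its 50-base words are shared with other loci, above all the TMEM189-UBE2V1 readthrough gene.

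Several partners of these chains changed more than UBE2N did. Of 13 genes for linear and lysine 63 chains, 8 rose at each time in WT against 9 in KO cells, and 1 fell, with 2 lower in KO cells at 12 h. Over all tested genes 15.1% to 20.2% rose and 19.5% to 26.1% fell in these comparisons. Their median at 24 h was 1.65 in WT against 1.14 in KO cells. BIRC3, a ligase of the NF-κB pathway, changed by 7.11, 6.48 and 6.16 in WT against 8.24, 8.21 and 8.65 in KO cells. Its vehicle libraries read 1.77 to 2.80 in WT and 0.27 to 1.53 in KO cells, all below 3.32. BIRC3 thus passed the filter only through its stimulated libraries, and its calls and changes are a description. How its change depends on the offset under the logarithm was not tested. TNFAIP3, the ubiquitin-editing inhibitor A20, changed by 5.23, 4.83 and 4.78 against 5.44, 5.65 and 5.74. PELI1, a ligase that works with UBE2N, changed by 3.83, 2.31 and 2.08 against 3.36, 3.58 and 3.33. The deubiquitinase CYLD changed by 2.96, 2.51 and 2.38 against 3.55, 3.71 and 3.33. Of the 13 genes, 2 had a called interaction on the mean of the 3 times, 1 at 24 h and none at 6 or 12 h, all with a higher response in KO cells. The other differences in response between the genotypes in this list were not called.

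Both human RAD6 homologs rose. UBE2A and UBE2B ubiquitinate histone H2B with RNF20 and RNF40 and PCNA with RAD18. UBE2A went from 6.81 to 7.38 in WT vehicle libraries to 8.07 to 9.06 after stimulation, and from 6.75 to 7.06 to 7.26 to 9.21 in KO cells, where the lowest stimulated value, 7.26, was replicate 2 at 24 h. Its change was 1.20 ± 0.22, 1.62 ± 0.22 and 1.14 ± 0.22 in WT cells (adjusted p = 0.000114, 1.71e-06 and 0.000145) and 2.15 ± 0.22, 1.67 ± 0.22 and 1.09 ± 0.22 in KO cells (adjusted p = 1.00e-08, 9.37e-07 and 0.000308).

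UBE2B changed by 0.62 ± 0.25, 0.94 ± 0.25 and 0.99 ± 0.25 in WT cells against 0.87 ± 0.25, 0.58 ± 0.25 and 0.68 ± 0.25 in KO cells. It passed the test in 4 of the 6 comparisons, all but WT at 6 h (adjusted p = 0.0520) and KO at 12 h (adjusted p = 0.0699). Both of these passed with replicates as a block (adjusted p = 0.000979 and 0.00175), and WT at 6 h also passed without vehicle replicate 3 (0.94) or stimulated replicate 2 (0.75). The KO call of UBE2B at 24 h was lost without vehicle replicate 1 or 2 (0.60, 0.59) or stimulated replicate 2 or 3 (0.71, 0.54).

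The E2s of NEDD8 moved in opposite directions. UBE2F, which serves cullin 5 with RNF7, rose in all 6 comparisons, by 0.99 ± 0.28, 1.30 ± 0.28 and 1.10 ± 0.28 in WT cells and 1.13 ± 0.28, 1.49 ± 0.28 and 1.24 ± 0.28 in KO cells, with adjusted p between 9.92e-05 and 0.00539. UBE2M, which serves the other cullins with RBX1, fell in WT cells by 0.97 ± 0.22, 0.65 ± 0.22 and 0.56 ± 0.22 (adjusted p = 0.000961, 0.0204 and 0.0393). In KO cells it fell by 0.71 ± 0.22 and 0.67 ± 0.22 at 6 and 12 h (adjusted p = 0.0124 and 0.0185) and read -0.44 at 24 h without a call.

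KO stimulated 6 h replicate 2, which stands apart, read 8.22 for UBE2M against 7.06 and 7.18 in its group, and overlapped the vehicle libraries. Without it the change of UBE2M was -1.07. The KO call at 6 h was lost without vehicle replicate 2 (-0.49) or stimulated replicate 1 or 3 (-0.49, -0.55), and at 12 h without vehicle replicate 2 (-0.59) or stimulated replicate 3 (-0.63). The WT call was lost at 12 h without vehicle replicate 3 (-0.62) or stimulated replicate 1 or 3 (-0.55, -0.59), and at 24 h without vehicle replicate 2 or 3 (-0.58, -0.46) or stimulated replicate 1 or 2 (-0.47, -0.56). Of the 50-base words of UBE2F, 25.2% occur in other genes, the readthrough UBE2F-SCLY among them, and of those of UBE2M 9.6% occur in the pseudogene UBE2MP1.

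Among 10 neddylation partners, 1 rose in each comparison, DCUN1D3, a co-ligase for NEDD8, by 2.27, 2.28 and 2.24 in WT against 1.69, 1.70 and 2.12 in KO cells. The number that fell was 1, 1 and 3 in WT against 3, 0 and 1 in KO cells, with NEDD8 itself lower at 24 h in both (-0.87 and -0.75) and list medians of -0.20 and 0.04. Without KO stimulated 24 h replicate 2 or 3 the latter change of NEDD8 was -0.27 or -1.15. Of 14 genes of the SUMO pathway, 1 to 4 rose and 1 to 3 fell, with medians at 24 h of 0.32 and 0.34. SUMO3 was lower in all 6 comparisons (-1.21, -0.81 and -0.83 in WT, -0.99, -0.74 and -0.60 in KO cells). Over all tested genes 15.1% to 20.2% rose and 19.5% to 26.1% fell, and the counts of these small lists were not tested against those shares.

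UBE2T, the E2 of the Fanconi anemia pathway, fell in all 6 comparisons. WT vehicle libraries read 7.02, 7.50 and 7.39 (6 h), 6.76, 7.25 and 7.08 (12 h) and 6.74, 8.13 and 7.73 (24 h), and stimulated ones 5.57, 5.58 and 6.16, then 5.38, 4.69 and 5.33, then 5.07, 3.54 and 4.73. KO vehicle libraries were at 7.54, 7.34 and 7.45, then 7.59, 7.21 and 7.15, then 7.38, 8.07 and 7.17, and stimulated ones 5.80, 6.35 and 5.75, then 5.92, 4.90 and 5.40, then 5.05, 3.42 and 4.96. Stimulated and vehicle libraries never overlapped, and the genotypes ran together. In WT cells UBE2T was 2.90-fold, 3.72-fold and 8.49-fold lower (-1.54 ± 0.40, -1.90 ± 0.40 and -3.09 ± 0.40, adjusted p = 0.00320, 0.000406 and 4.03e-07), and in KO cells 2.79-fold, 3.76-fold and 8.33-fold lower (-1.48 ± 0.40, -1.91 ± 0.40 and -3.06 ± 0.40, adjusted p = 0.00399, 0.000392 and 5.09e-07). The fall at 24 h was larger than that at 6 h in both genotypes without a call (-1.55 in WT against -1.58 in KO cells, adjusted p = 0.0796 and 0.0894).

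UBE2C and UBE2S work in turn on the anaphase-promoting complex, UBE2C starting chains and UBE2S extending them. The calls of UBE2C were all lower and those of UBE2S all higher. UBE2C in WT vehicle libraries lay at 6.54, 5.91 and 7.28, then 6.28, 5.33 and 6.97, then 6.07, 6.80 and 7.22, and in stimulated ones 4.92, 4.59 and 5.92, then 5.43, 3.78 and 5.66, then 5.43, 2.66 and 5.52. KO vehicle libraries were at 6.11, 5.45 and 6.75, then 6.50, 5.41 and 6.88, then 6.38, 6.00 and 6.54, and stimulated ones 4.66, 4.30 and 4.16, then 5.25, 3.56 and 5.12, then 4.91, 2.92 and 4.63. Replicate 2 was the lowest stimulated library at 12 and 24 h in both genotypes, for UBE2C and for UBE2T.

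The change of UBE2C was -1.43 ± 0.66, -1.24 ± 0.66 and -2.16 ± 0.66 in WT cells and -1.73 ± 0.66, -1.62 ± 0.66 and -2.15 ± 0.66 in KO cells, and 3 of these passed: WT at 24 h (adjusted p = 0.00850), KO at 6 h (adjusted p = 0.0382) and KO at 24 h (adjusted p = 0.0102). The calls at 24 h were lost without stimulated replicate 2, in WT (-1.22) and in KO cells (-1.54), and that at 6 h without any of its 6 libraries except vehicle replicate 2 (-1.40 to -1.87). With replicates as a block UBE2C also passed in WT cells at 6 and 12 h and KO cells at 12 h (adjusted p = 0.00722, 0.0182 and 0.00277), the last also without vehicle replicate 2 (-2.05) or stimulated replicate 1 (-1.92), or with 5 added before the logarithm (-1.43). MKI67, a proliferation marker, read 6.38, 3.51 and 4.64 and 5.49, 2.67 and 3.21 in stimulated WT libraries at 12 and 24 h, and 5.35, 3.00 and 4.69 and 4.97, 2.90 and 3.76 in KO ones. It was thus also lowest in replicate 2, and its part in the values of UBE2C and UBE2T was not tested.

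UBE2S was not lowered. It changed by 0.63 ± 0.30, 0.96 ± 0.30 and 1.09 ± 0.30 in WT cells (adjusted p = 0.107, 0.0132 and 0.00437) and by 1.11 ± 0.30, 0.36 ± 0.30 and 0.29 ± 0.30 in KO cells (adjusted p = 0.00457, 0.384 and 0.485). The WT call at 12 h was lost without vehicle replicate 2 (0.65) or stimulated replicate 3 (0.72), and with replicates as a block the WT rise at 6 h passed (adjusted p = 0.0286). Of the 50-base words of UBE2S, 16.3% occur in its pseudogenes UBE2SP1 and UBE2SP2.

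Partners of these enzymes were called lower more often than higher, and so were all tested genes. Over the 6 stimulation comparisons 19.5% to 26.1% of all tested genes were called lower and 15.1% to 20.2% higher. Of 13 genes of the anaphase-promoting complex and mitosis, 5, 4 and 9 fell in WT cells and 6, 3 and 7 in KO cells. At most 1 was higher, and the medians at 24 h were -1.33 and -0.73. The count of 3 in KO cells at 12 h lies near the share of all genes. CDC20, an activator of the complex, changed by -2.45, -2.77 and -3.43 in WT against -2.57, -2.78 and -3.40 in KO cells, and TOP2A by -1.87 (not called), -2.17 and -3.42 against -2.15, -2.11 and -3.36. Without stimulated replicate 2 the change was -2.15 for CDC20 in WT cells at 24 h, -1.69 for CDC20 and -1.27 for TOP2A in KO cells at 12 h, and -1.26 for TOP2A in KO cells at 6 h. FZR1, the other activator, was the single member called higher (WT at 12 and 24 h, 0.56 and 0.79, KO at 6 and 24 h, 0.56 and 0.66). Of 10 Fanconi anemia partners of UBE2T, 4, 5 and 7 fell in WT cells and 4, 5 and 6 in KO cells, and none rose. The median of these at 24 h was -1.39 in WT against -1.33 in KO cells. FANCE fell in all 6 comparisons (-2.90, -2.81 and -2.30 in WT, -2.69, -2.47 and -1.74 in KO cells). FANCI, which is monoubiquitinated through this pathway, read -1.34 (not called), -1.73 and -2.92 against -1.74, -1.83 and -2.66.

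UBE2G1, UBE2R2, UBE2G2, UBE2J1, UBE2J2 and UBE2K, which build degradation-type chains or work at the endoplasmic reticulum (ER), fell or were not called. UBE2G1, which extends chains on substrates of cullin 4 ligases, fell in all 6 comparisons, by 1.09 ± 0.22, 1.08 ± 0.22 and 0.98 ± 0.22 in WT cells and 1.10 ± 0.22, 0.88 ± 0.22 and 1.02 ± 0.22 in KO cells (adjusted p between 0.000198 and 0.00230). KO stimulated 6 h replicate 2 was its lowest library at 5.31, against 6.07 and 6.08 in its group. UBE2R2, a partner of SCF ligases, fell at 6 h in both genotypes (-0.67 ± 0.19 and -0.77 ± 0.19, adjusted p = 0.00699 and 0.00199) and at 12 h in KO cells (-0.60 ± 0.19, adjusted p = 0.0153).

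The last call of UBE2R2 was lost without vehicle replicate 1 or 3 (-0.54, -0.53) or stimulated replicate 2 (-0.44). In WT cells at 12 h the change of UBE2R2 was -0.47 ± 0.19 (adjusted p = 0.0519), and it passed with replicates as a block (adjusted p = 0.0129), without vehicle replicate 2 (-0.71) and without stimulated replicate 3 (-0.59).

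UBE2G2, which works in ER-associated degradation, had its lowest WT values after stimulation for 24 h. WT vehicle libraries read 7.52, 7.59 and 7.11 at 24 h and stimulated ones 5.80, 5.02 and 4.83, and KO vehicle libraries 7.49, 7.62 and 7.23 and stimulated ones 6.92, 5.54 and 6.72. The groups did not overlap within a genotype, and a single KO library, replicate 2, reached the WT range. The change of UBE2G2 was -0.80 ± 0.37, -1.11 ± 0.37 and -2.19 ± 0.37 in WT cells (adjusted p = 0.0896, 0.0169 and 1.82e-05) and -0.46 ± 0.37, -0.62 ± 0.37 and -1.06 ± 0.37 in KO cells (adjusted p = 0.345, 0.197 and 0.0223). The WT call at 12 h was lost without vehicle replicate 2 (-0.95) or stimulated replicate 3 (-0.80), and the KO call without vehicle replicate 1 or 2 (-1.03, -0.97) or stimulated replicate 2 (-0.63). WT at 6 h passed without stimulated replicate 2 (-1.07).

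The tail-anchored ER enzymes UBE2J1 and UBE2J2 and UBE2K, an enzyme of degradation-type chains, were never called. Of 12 partners in ER-associated degradation, 2, 3 and 4 fell in WT cells and 1, 1 and 2 in KO cells. At most 1 rose, and the medians at 24 h were -0.61 and -0.12. With 12 genes such counts lie near or below what the shares of all genes give (19.5% to 26.1% lower), so they are not a result. DERL3, a channel component, read -0.98 (not called), -1.66 and -2.89 in WT against -0.29 (not called), -1.30 and -1.44 (-0.88 without stimulated replicate 2) in KO cells, and SYVN1, the main ER ligase of UBE2J1, fell by 1.05, 0.88 and 0.95 in WT cells against 0.80 at 6 h in KO cells. HERPUD1, a stress-induced ER protein, was called once, higher in KO cells at 24 h (1.22), with a called interaction of 1.19 on the mean of the 3 times.

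UBE2Z, which takes ubiquitin and FAT10 from the E1 UBA6, rose in all 6 comparisons. WT vehicle libraries read 8.04, 8.06 and 7.51 (6 h), 7.99, 7.90 and 7.73 (12 h) and 7.90, 7.78 and 7.37 (24 h). Stimulated WT libraries were at 9.22, 9.45 and 8.58, then 9.45, 9.39 and 9.17, then 9.68, 9.90 and 9.06, with no overlap. The change of UBE2Z was 1.22 ± 0.25, 1.46 ± 0.25 and 1.87 ± 0.25 in WT (adjusted p = 0.000316, 3.45e-05 and 6.92e-07) and 0.92 ± 0.25, 1.15 ± 0.25 and 1.56 ± 0.25 in KO cells (adjusted p = 0.00403, 0.000595 and 1.15e-05). Its E1, UBA6, was at 1.30, 1.61 and 1.30 in WT against 0.99, 1.58 and 1.26 in KO cells without a call. In WT cells each stimulated library of UBA6 lay above the vehicle library of the same replicate number and time. The fit without a block does not use this pairing, and block values of partner genes are not given. In KO cells at 6 h UBA6 read 6.82, 4.49 and 6.20 in vehicle libraries and 8.68, 3.55 and 8.26 after stimulation. Its change without 1 stimulated library ran from 0.07 (without replicate 1) to 2.63 (without replicate 2, the library that stands apart). The low vehicle replicate 2 stays in the comparison that gave 2.63.

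Of the 14 ubiquitin and E1 genes, 2 rose at each time in WT cells and 1, 2 and 2 in KO cells, while 4, 4 and 7 fell against 4, 2 and 4, with medians at 24 h of -0.57 and -0.34. SAE1, a subunit of the SUMO E1, fell in all 6 (-1.36, -1.05 and -1.39, -1.09, -0.92 and -0.78), and so did NAE1, a subunit of the NEDD8 E1 (-0.68, -0.64 and -0.76, -0.82, -0.62 and -0.76). Of 8 proteins with an E2 fold and no UBE2 symbol, 1 rose in each comparison, ATG3, the E2-like enzyme that lipidates LC3 (0.97, 1.31 and 1.50 in WT, 0.77, 1.36 and 1.63 in KO cells). Of the 8, 2, 2 and 1 fell in WT cells against 1, 3 and 1 in KO cells, with medians at 24 h of -0.12 and 0.15. Over all tested genes 15.1% to 20.2% rose and 19.5% to 26.1% fell, and the counts of both lists were not tested against those shares.

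UBE2QL1, a little-studied relative of UBE2Q1, went from near 0 to clear values. In WT vehicle libraries it read 0.53, 1.23 and 1.22 (6 h), 0.99, 0.00 and 0.00 (12 h) and 0.77, 0.02 and 0.00 (24 h), and in stimulated ones 1.40, 2.59 and 2.25, then 3.39, 3.92 and 6.22, then 5.19, 5.27 and 6.04. KO vehicle libraries were at 0.00, 0.00 and 0.30, then 0.31, 0.01 and 1.31, then 0.30, 0.01 and 0.72, and stimulated ones 5.24, 5.05 and 4.84, then 5.46, 2.84 and 6.32, then 5.46, 4.90 and 6.17. At 6 h every stimulated KO library was thus far above every stimulated WT library, and at 12 and 24 h the genotypes overlapped. Values listed at 0 make a fold unsuitable, so log2 differences alone are given.

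On that scale UBE2QL1 changed by 1.09 ± 0.65 (adjusted p = 0.202), 4.18 ± 0.65 (adjusted p = 1.06e-05) and 5.23 ± 0.65 (adjusted p = 2.34e-07) in WT cells. In KO cells it rose by 4.94 ± 0.65, 4.33 ± 0.65 and 5.17 ± 0.65 (adjusted p = 6.27e-07, 5.93e-06 and 3.11e-07). These sizes depend on the offset under the logarithm: with 5 added on the linear scale the 5 called changes of UBE2QL1 were between 2.21 and 3.02 and all were still called. Since it passed the filter only through its stimulated libraries, it had to differ with stimulation, and its calls there are a description.

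**Figure D3:**
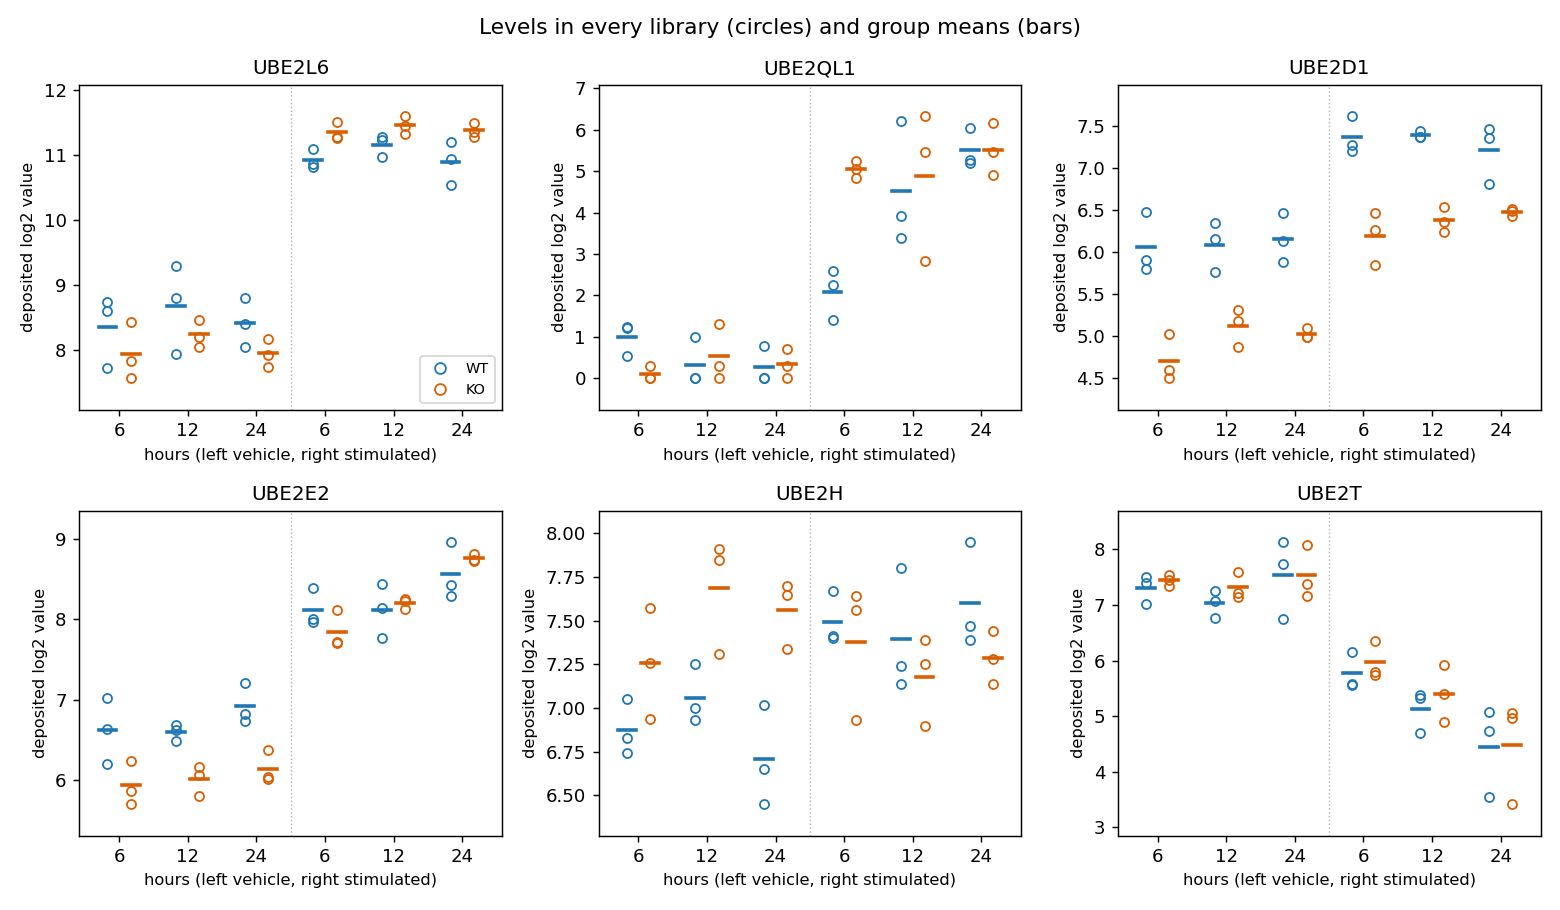
Deposited log2 value (vertical axis) of 6 E2 genes in every library (circles) with group means (bars), WT in blue and KO in orange, at 6, 12 and 24 h, vehicle left of the dotted line and stimulated right of it. UBE2L6, UBE2QL1, UBE2D1 and UBE2E2 lie higher after stimulation and UBE2T lower, and KO circles of UBE2D1 lie below WT circles in every pair of groups.

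UBE2Q1 rose late. It changed by -0.02, 0.34 and 0.66 ± 0.15 in WT cells (adjusted p = 0.000559 at 24 h) and by -0.28, 0.24 and 0.49 ± 0.15 in KO cells (adjusted p = 0.00872 at 24 h). The KO call of UBE2Q1 was lost without vehicle replicate 2 (0.38), and with replicates as a block the WT rise at 12 h passed as well (adjusted p = 0.0304). UBE2Q2, its paralog, was not called, with its lowest changes in WT cells at 6 h (-0.54, adjusted p = 0.0595) and KO cells at 24 h (-0.54, adjusted p = 0.0548). The former passed with replicates as a block (adjusted p = 0.0313) and without stimulated replicate 1 (-0.66).

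UBE2H, the E2 of the CTLH ligase complex, responded to stimulation in WT cells alone among its calls. In WT vehicle libraries it read 7.05, 6.74 and 6.83 (6 h), 7.25, 6.93 and 7.00 (12 h) and 7.02, 6.65 and 6.45 (24 h), and in stimulated ones 7.41, 7.40 and 7.67, then 7.14, 7.24 and 7.80, then 7.47, 7.95 and 7.39. KO vehicle libraries were at 7.57, 6.94 and 7.26, then 7.91, 7.31 and 7.85, then 7.70, 7.34 and 7.65, and stimulated ones 7.56, 6.93 and 7.64, then 6.90, 7.25 and 7.39, then 7.28, 7.44 and 7.14. KO vehicle libraries stood above WT vehicle libraries at 12 and 24 h, and after stimulation the genotypes overlapped at all times.

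The WT change of UBE2H was 0.62 ± 0.23 (adjusted p = 0.0357), 0.34 ± 0.23 (adjusted p = 0.259) and 0.90 ± 0.23 (adjusted p = 0.00215), and the KO change 0.12, -0.51 and -0.27 ± 0.23 with no call. The WT call at 6 h was lost without vehicle replicate 2 or 3 (0.56, 0.60) or any stimulated replicate (0.66, 0.67 and 0.53). At 12 h in KO cells UBE2H passed as lower without vehicle replicate 2 (-0.70).

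The 9 genes called in none of the 18 comparisons included UBE2D4, UBE2J1, UBE2J2, UBE2K, UBE2O, UBE2Q2, UBE2V1 and UBE2W, with stimulation changes between -0.74 and 0.46. UBE2O, a large enzyme that joins the E2 and E3 roles, and UBE2W, which modifies N-termini, read 4.75 and 4.74 in KO stimulated 6 h replicate 2 against 6.50 and 6.01, and 6.17 and 6.25, in the rest of that group. The 35 values of UBE2W outside that library ran no lower than 5.99.

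Between the genotypes few E2 genes differed, and UBE2D1 was the most regular. In vehicle libraries 2 members were called at 6 h (UBE2D1 and UBE2E2, both lower in KO cells), 1 at 12 h (UBE2D1, lower) and 3 at 24 h (UBE2D1 and UBE2E2 lower, UBE2H higher). Among all genes in these comparisons, 4.28% were higher and 3.91% lower at 6 h, 2.90% and 2.34% at 12 h and, after 24 h, 2.23% and 1.75%. With 33 members, such counts lie near what these shares give, so the number of E2 genes that differed is not a result, and the values of the single genes are. Stimulated libraries gave 3 calls at 6 h (UBE2D1 and UBE2E1 lower, UBE2QL1 higher), 1 at 12 h (UBE2D1, lower) and 1 at 24 h (UBE2E3, higher). There the shares of all genes were 4.86% higher and 3.86% lower at 6 h, 1.78% and 1.68% at 12 h and, after 24 h, 3.41% and 2.46%.

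In vehicle libraries UBE2D1 was 2.56-fold, 1.96-fold and 2.20-fold lower in KO than in WT cells (-1.36 ± 0.23, -0.97 ± 0.23 and -1.14 ± 0.23, adjusted p = 0.000221, 0.00843 and 0.00294). After stimulation it was 2.27-fold and 2.02-fold lower at 6 and 12 h (-1.18 ± 0.23 and -1.01 ± 0.23, adjusted p = 0.00111 and 0.00926), and at 24 h the difference was -0.73 ± 0.23 (adjusted p = 0.0512). The groups did not overlap in any of the 6. At 24 h UBE2D1 passed with replicates as a block (adjusted p = 0.0318), with 5 added before the logarithm (-0.70) and without WT stimulated replicate 3 (-0.94), the library that stands apart. Its call at 12 h was lost in vehicle libraries without WT replicate 3 (-0.84) or KO replicate 1 (-0.85), and in stimulated libraries without KO replicate 3 (-0.94).

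UBE2E2 was 1.61-fold lower in KO vehicle libraries at 6 h (-0.69 ± 0.22, adjusted p = 0.0485) and, after 24 h, 1.72-fold (-0.78 ± 0.22, adjusted p = 0.0363). At 12 h it read -0.59 ± 0.22 (adjusted p = 0.128) and passed with replicates as a block (adjusted p = 0.0496). The call of UBE2E2 at 6 h was lost without WT replicate 2 or 3 (-0.49, -0.68) or KO replicate 1 or 3 (-0.57, -0.65), with 5 added before the logarithm (-0.65) and with no mean-variance trend. At 24 h it was lost without WT replicate 1 or 3 (-0.83, -0.64) or any KO replicate (-0.73, -0.72 and -0.90). After stimulation the difference of UBE2E2 was -0.27, 0.09 and 0.20 with no call.

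UBE2H was 1.81-fold higher in KO vehicle libraries at 24 h (0.85 ± 0.23, adjusted p = 0.0296), a call lost without WT replicate 2 or 3 (0.82, 0.73) or KO replicate 1 or 3 (0.79, 0.81). Its difference was 0.38 and 0.63 at 6 and 12 h and -0.12, -0.22 and -0.32 after stimulation, without a call. UBE2E1 was 1.70-fold lower in stimulated KO libraries at 6 h (-0.77 ± 0.19, adjusted p = 0.0107), read -0.52 at 12 h and -0.01 at 24 h, and lost the call without WT replicate 1 (-0.67) or KO replicate 2 (-0.57), the latter a library that stands apart. UBE2E3 was 1.74-fold higher in stimulated KO libraries at 24 h (0.80 ± 0.23, adjusted p = 0.0349), and lost the call without WT replicate 1 or 3 (0.79, 0.66) or KO replicate 1 or 3 (0.60, 0.86). UBE2QL1 was 2.96 ± 0.65 higher on the log2 scale in stimulated KO libraries at 6 h (adjusted p = 0.00422), and 0.36 and 0.01 at 12 and 24 h. With 5 added before the logarithm its difference at 6 h was 2.02. The stimulated WT libraries at 6 h read 1.40 to 2.59, below the filter level of 3.32. UBE2QL1 passed the filter only through its stimulated libraries, and this call is a description.

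Each of these 11 genotype calls was lost when the model was fitted on only the 6 libraries compared, although the differences stayed the same, with adjusted p from 0.0564 (UBE2QL1) to 0.327 (UBE2E3). For UBE2D1 it was 0.0701, 0.0867 and 0.0747 in vehicle libraries and 0.152 and 0.0662 after stimulation at 6 and 12 h. With replicates as a block, 2 instead of 1 member passed at 12 h in vehicle libraries, 2 instead of 1 at 12 h in stimulated ones (with UBE2L3, adjusted p = 0.0474) and 4 instead of 1 at 24 h in stimulated ones (with UBE2D1, UBE2G2 and UBE2S, adjusted p = 0.0318, 0.0268 and 0.0318). UBE2Q1 passed with the block as higher in KO vehicle libraries at 24 h (adjusted p = 0.0376). UBE2G2 was 1.17 ± 0.37 higher in stimulated KO libraries at 24 h (adjusted p = 0.0534), and also passed without WT replicate 1 (1.47) or KO replicate 2 (1.60). UBE2Q1 in vehicle libraries at 12 h passed without KO replicate 2 (0.52), and UBE2Z in stimulated libraries at 6 h without WT replicate 3 (-0.88) or KO replicate 1 (-0.87).

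ATG3 and HERC5, which are outside the UBE2 symbols, were also lower in KO cells. ATG3 was lower in vehicle libraries at all times (-0.69, -0.79 and -0.67) and in stimulated ones at 6 and 12 h (-0.89 and -0.74), and HERC5 was lower in vehicle libraries (-2.01, -2.06 and -1.79). Of the 7 ISG15 system genes, HERC5 was the 1 called lower in vehicle libraries at each time, and none was called after stimulation. In the 9 partner lists, at most 2 genes were called in 1 direction in any comparison of KO with WT.

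**Figure D4:**
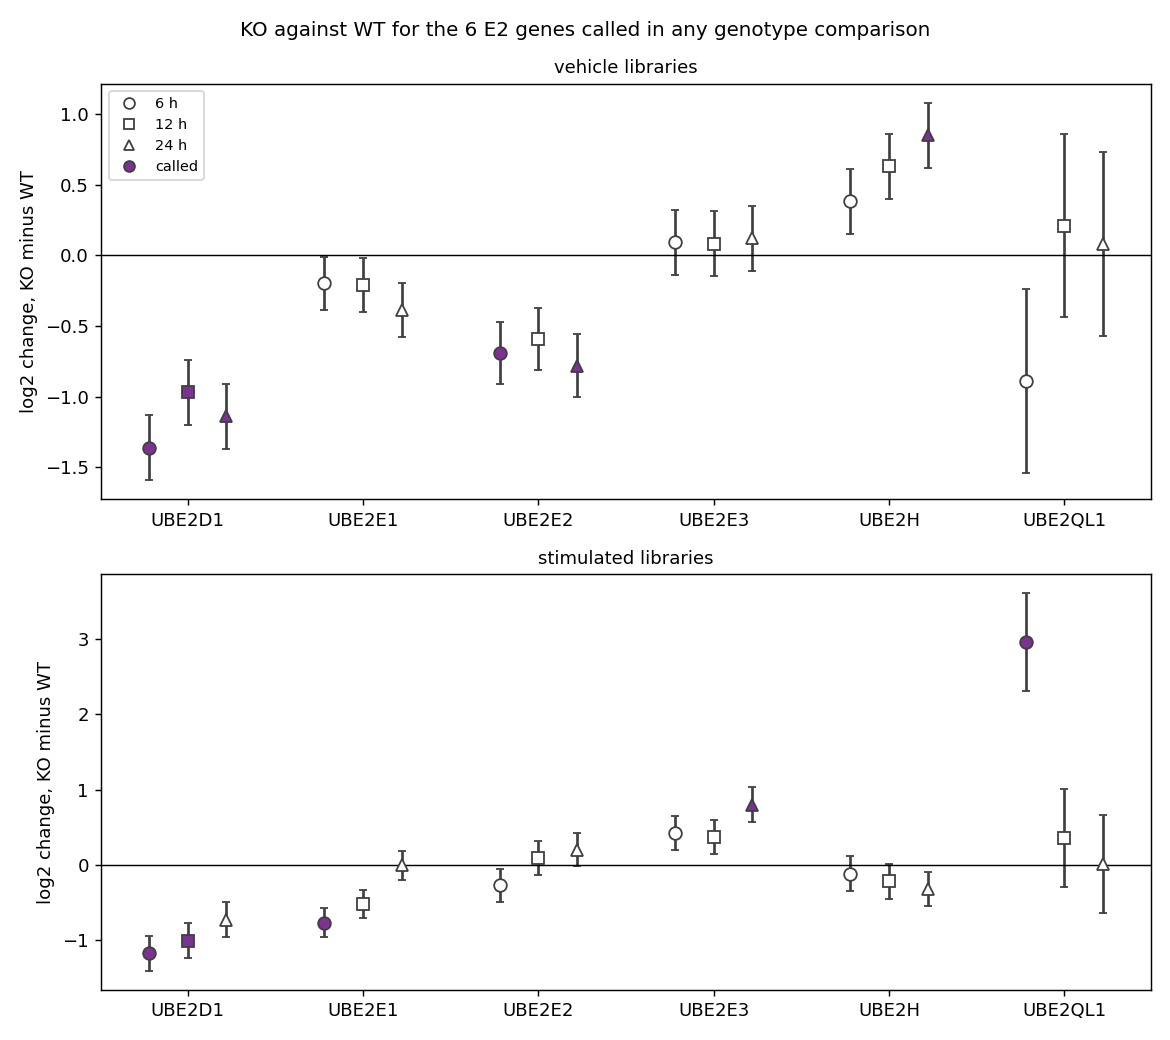
Log2 change of KO against WT ± SE (vertical axis) at 6, 12 and 24 h for the 6 E2 genes called in any genotype comparison, in vehicle (top) and stimulated libraries (bottom), with filled symbols called. UBE2D1 lies below 0 in all 6 comparisons, and UBE2QL1 lies at 2.96 in stimulated libraries at 6 h and near 0 later.

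Whether the response to stimulation differed between genotypes was tested as an interaction, the KO change minus the WT change. At single times limma called 0 of the 33 members, with 4, 2 and 6 members at an unadjusted p below 0.05 at 6, 12 and 24 h, and 0.452%, 0.160% and 0.433% of all genes were called there. On the mean of the 3 times 2 members were called higher and 1 lower, against 3.32% and 2.92% of all genes, and 7 had an unadjusted p below 0.05.

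UBE2L6 responded more in KO cells, by 0.84 ± 0.22 on the mean (1.79-fold, adjusted p = 0.0209) and by 0.84, 0.74 and 0.95 at the single times. UBE2E2 did too, by 0.69 ± 0.18 (1.62-fold, adjusted p = 0.0170), with 0.42, 0.68 and 0.98 at the single times. UBE2H responded less, by -0.84 ± 0.19 (adjusted p = 0.00589), with -0.50, -0.85 and -1.17. All 3 were called without each of the 36 libraries in turn. For UBE2E2 and UBE2H the genotypes lay apart in vehicle libraries at 12 and 24 h and not after stimulation, whereas UBE2L6 was a little lower in KO vehicle libraries and a little higher in stimulated ones.

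Other interactions missed the threshold. UBE2QL1 differed by 3.85 ± 0.92 at 6 h (adjusted p = 0.0550) and by 0.15 and -0.07 later. It passed the filter only through its stimulated libraries, and its values here are a description. The value at 6 h was 2.23 with 5 added before the logarithm (adjusted p = 0.127) and passed with no mean-variance trend (adjusted p = 0.0423). On the mean UBE2QL1 passed without KO stimulated 12 h replicate 2 (1.65). UBE2D4 differed by 0.89 ± 0.29 on the mean (adjusted p = 0.0622), with negative changes in WT and positive ones in KO cells, none of them called. It passed without any 1 of 6 libraries (0.96 to 1.03), WT vehicle 6 h replicate 1, WT stimulated replicate 2 at 6, 12 or 24 h, KO vehicle 6 h replicate 2 or KO stimulated 24 h replicate 2. UBE2V2 differed on the mean without KO stimulated 6 h replicate 2 (0.44).

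The change with stimulation at 24 h was set against that at 6 h within each genotype. In WT cells 2 members had a larger and 1 a smaller change at 24 h, where 4.38% and 5.26% of all genes did. In KO cells 1 had a larger and 1 a smaller change, against 3.35% and 3.41%. UBE2E1 fell back by 1.14 ± 0.27 in WT cells (adjusted p = 0.00754) and read -0.20 in KO cells (adjusted p = 0.730), and whether the genotypes differed in this was not tested. UBE2QL1 gained 4.14 ± 0.92 in WT cells (adjusted p = 0.00497, and 2.60 with 5 added before the logarithm) and 0.22 in KO cells, where it was already high at 6 h. These values of UBE2QL1 are a description, given its passage through the filter.

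UBE2Q1 gained in both genotypes, 0.69 ± 0.21 in WT (adjusted p = 0.0343) and 0.77 ± 0.21 in KO cells (adjusted p = 0.0237). The WT call was lost without any of 8 of its 12 libraries (0.61 to 0.71), and the KO call without vehicle 6 h replicate 3 (0.76), vehicle 24 h replicate 2 (0.66) or stimulated 24 h replicate 2 (0.74). UBE2A lost 1.06 ± 0.32 in KO cells (adjusted p = 0.0412), a call that ended without any of 9 of its 12 libraries (-0.69 to -1.11). These 3 calls of UBE2Q1 and UBE2A were lost on only the 12 libraries compared (adjusted p = 0.122 to 0.180), and UBE2Q1 in WT cells and UBE2A also with no mean-variance trend (adjusted p = 0.0571 and 0.0528). Without KO stimulated 24 h replicate 2, whose UBE2A value of 7.26 lay below 8.38 and 8.34 in its group, the loss was -0.69. UBE2G2 in WT cells passed without stimulated 6 h replicate 3 (-1.70) or stimulated 24 h replicate 1 (-1.68), and UBE2T without vehicle 24 h replicate 1 (-1.95) or stimulated 24 h replicate 1 (-1.86). UBE2Z in WT cells passed with both libraries that stand apart left out (0.89, adjusted p = 0.0384).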

How the data were processed

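The 36 libraries are total RNA-seq of THP-1 cells. The authors deposited 1 table of log2 expression values, used as they stand. Cutadapt 1.9.1, GSNAP and the build GRCh37.p5 are named, per the submitters' processing notes. The counting tool, strand setting, annotation, normalization and offset are not given in the sources used here. Library medians ran from 5.47 to 5.48, so the libraries share nearly 1 median, and a shift of most genes at once could not be seen. Depth is unknown. Of 21599 rows, 20609 matched a symbol through Entrez IDs and 990 did not.

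In R 4.3.3, limma 3.58.1 estimated 12 group means from the 36 libraries (mean-variance trend, 24 residual degrees of freedom), with Benjamini-Hochberg adjustment over 21232 genes in each of 18 comparisons. The spread is thus estimated over all groups. Tables and plots were made in Python 3.11.15 (pandas 2.3.3, matplotlib 3.10.9). The same fit was run on simulated data for WT stimulated against vehicle at 6 h, over 21232 genes. It recovered 15 of 100 genes shifted by log2 1 and 62 of 100 shifted by log2 2, 0 in the wrong direction, with 4 false calls. No other genes were shifted there, while 7640 were called in the real comparison, so the Benjamini-Hochberg cutoff was stricter in the simulation. The recovered shares are therefore not those of the real comparison.

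The members and lists were chosen with earlier results of these data known. Values per library are given for UBE2L6 and, per family of comparisons, for up to 5 members with the largest mean change among those called at 2 or more times with 1 sign (interaction: called on the mean or at any time). A few further members were given per library after their values were seen: UBE2E1, UBE2G2 and UBE2N at 24 h. List examples are up to 4 members of the largest mean change, and some others (such as FZR1, NEDD8, SUMO3, NAE1, UBA6 and HERPUD1) were named after their values were seen. A member counted among the 33, and some partner genes, are not reported by name here. Transcript words of 50 bases shared between genes come from GENCODE 29.

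Whether replicate numbers pair the libraries was checked on deviations from the group means. In 9 of 12 comparisons same-numbered libraries all had a correlation above 0.1 (range over all comparisons -0.150 to 0.589). There the block value stands beside the result of a member where it changes a call. Block values of partner genes are not given. The exceptions were KO stimulated against vehicle at 24 h and KO against WT at 6 h in both treatments. Alternatives were no filter, an offset of 5, quantile normalization, no mean-variance trend, a replicate block, only the libraries compared, and each library left out, and leaving out both libraries that stand apart was added after seeing the data.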

Additional observations from a re-analysis of the deposited data

Results flagged for a closer look

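For 3 E2 genes a test of the difference between genotypes passed. The response to stimulation on the mean of the 3 times was larger in KO than in WT cells for UBE2L6 (0.84) and UBE2E2 (0.69) and smaller for UBE2H (-0.84), with 3 libraries per group and limma adjusted p of 0.0209, 0.0170 and 0.00589. Of all tested genes 3.32% were called higher and 2.92% lower there, so the number of E2 genes is not a result.

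For 3 further E2 genes a test of the change with stimulation at 24 h against that at 6 h passed. In WT cells it was smaller at 24 h for UBE2E1 (-1.14) and larger for UBE2Q1 (0.69). In KO cells it was smaller for UBE2A (-1.06) and larger for UBE2Q1 (0.77). The calls of UBE2Q1 and UBE2A were each lost without some single libraries and on only the libraries compared. Of all tested genes 4.38% had a larger and 5.26% a smaller change at 24 h in WT cells, and 3.35% and 3.41% in KO cells. The number of E2 genes lies near these shares and is not a result. UBE2QL1 is listed with them as a description: its WT change was larger at 24 h (4.14, and 2.60 with 5 added before the logarithm), and it passed the filter on low values only through its stimulated libraries.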

How the results depend on the processing

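Of 284 recomputed counts of called members, 242 stayed within 1.5 times the reported count and 42 moved, in 11 of 18 comparisons. No change in a called member reversed. Leaving out the filter or quantile normalization lost and gained 0 of 125 calls, an offset of 5 lost 2 and gained 2, no mean-variance trend lost 5 and gained 1, and the replicate block lost 0 and gained 24. Fitting only the libraries compared lost 29 of 122 calls and gained 5. Its smaller fits leave fewer samples for the spread. It gave 11 called members for KO stimulation at 6 h (18 reported) and 0 for all 6 comparisons of KO with WT and for the KO response at 24 h against 6 h. For the interaction on the mean of 3 times it equals the reported fit. For KO against WT in vehicle at 6 h (2 reported) an offset of 5 or no trend gave 1. In stimulated libraries at 24 h (1 reported) an offset of 5 gave 2 and the block 4. The block gave 2 at 12 h in vehicle and in stimulated libraries (1 reported in each). For the interaction (0 reported) no trend and the block gave 1 at 6 h, UBE2QL1 with the replicate block at adjusted p = 0.0221, and the block gave 1 at 24 h, UBE2H at adjusted p = 0.0455. On the mean the block added UBE2D4 (adjusted p = 0.0177). In comparisons whose numbers do not pair, it added UBE2Q2 (adjusted p = 0.0287) and UBE2R2 (adjusted p = 0.0306) in KO cells at 24 h, and UBE2Q1 (vehicle, adjusted p = 0.0238) and UBE2A (stimulated, adjusted p = 0.0315) for KO against WT at 6 h. For the KO response at 24 h against 6 h (2 reported) no trend gave 1.

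With single libraries left out, the counts for KO against WT were 1 to 2, 0 to 2 and 1 to 2 in vehicle and 2 to 4, 0 to 1 and 0 to 2 in stimulated libraries at 6, 12 and 24 h, and 2 to 5 (WT) and 0 to 2 (KO) for the response at 24 h against 6 h. Of 125 calls, 34 were lost without at least 1 library. Leaving out both libraries that stand apart, chosen after seeing the data, lost 4 of 52 calls and gained 3. Causes were not tested. Depth is unknown, so its limit on low values such as those of UBE2QL1 cannot be given.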
